A study of Mus musculus with 6 samples.

Results

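The 10 genes described here are 7 transcription factors and 3 cadherins known as markers and regulators of the mesenchymal state, among the 54752 gene identifiers of a mouse RNA-seq count table. They were taken by symbol: the zinc finger repressors Snai1 and Snai2, the basic helix-loop-helix factors Twist1 and Twist2, the zinc finger homeobox factors Zeb1 and Zeb2, the paired-type homeobox factor Prrx1, and the cadherins Cdh1 (E-cadherin), Cdh2 (N-cadherin) and Cdh11 (OB-cadherin). Their counts were read in every library of the series.

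The cells were NIH/3T3, an immortalized fibroblast line derived from mouse embryos, used as a model of myofibroblast differentiation. Every group was cultured for 72 h, in 2 replicates each: vehicle, which was PBS; DMSO plus 1 ng/ml of TGFB1, the cytokine TGF-β1; and BI6727 at 5 μM plus the same dose of TGFB1. They are called vehicle, TGF-β1 + DMSO and TGF-β1 + BI6727. BI6727 (volasertib) inhibits the mitotic kinase PLK1. The vehicle group had PBS and not DMSO, so that TGF-β1 and DMSO cannot be told apart in the comparison of TGF-β1 + DMSO with vehicle. The labels name no DMSO for the BI6727 group. Nothing in the labels says that the replicates were separate cultures, so the p-values measure only the spread between these libraries, which may be technical.

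In development and wound repair, TGF-β signalling through SMAD proteins is known to raise SNAI and ZEB factors in epithelial cells, and these bind E-box motifs in the Cdh1 promoter and repress it. The result is the cadherin switch, in which E-cadherin is lost and N-cadherin or Cdh11 is gained. Fibroblasts start from the mesenchymal side of that switch. In them, TWIST and PRRX factors are known for mesenchyme patterning, and Cdh2 and Cdh11 hold fibroblasts and myofibroblasts to each other.

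Promoter sequence was read where it was available, to show whether the E-box bound by the SNAI and ZEB families lies next to the factors' own starts. Of the 10 genes, 5 were matched in the promoter table used here (RefSeq, GRCm38.p6). The letters searched were CAGGTG, which read CACCTG on the other strand, within the 250 bases before each start. A match was found in Snai1 alone, with its first base at position -126 from the start, and none in the windows of Twist1, Twist2, Prrx1 or Zeb2. Over the 32851 promoters searched, 17.22% hold these letters. The window of Snai1 is printed with the match in capitals, followed by those of Prrx1 and Twist2, the matched factors with the lowest fold changes under TGF-β1. Each is written 5′ to 3′ on the gene's strand. The window of Prrx1 stops at the annotated gene's first base, which leaves 190 bases.
Snai1, chr2:167537945-167538194, plus strand: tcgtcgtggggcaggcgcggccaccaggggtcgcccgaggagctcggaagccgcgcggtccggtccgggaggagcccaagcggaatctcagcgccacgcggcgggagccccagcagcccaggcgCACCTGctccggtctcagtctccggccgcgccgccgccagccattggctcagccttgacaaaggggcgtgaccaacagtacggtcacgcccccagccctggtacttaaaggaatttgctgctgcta
Prrx1, chr1:163313711-163313900, minus strand: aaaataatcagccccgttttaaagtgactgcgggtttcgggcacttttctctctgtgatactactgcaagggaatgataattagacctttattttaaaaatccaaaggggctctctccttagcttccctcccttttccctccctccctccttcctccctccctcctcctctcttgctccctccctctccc
Twist2, chr1:91801211-91801460, plus strand: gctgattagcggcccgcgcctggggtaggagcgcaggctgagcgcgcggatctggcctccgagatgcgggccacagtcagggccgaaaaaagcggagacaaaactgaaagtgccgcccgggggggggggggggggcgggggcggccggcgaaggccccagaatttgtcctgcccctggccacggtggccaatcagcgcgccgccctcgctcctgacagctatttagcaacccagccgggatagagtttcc
These matches are a description of letters, not of bound sites.

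Depth ranged from 18362378 to 24452153 counts per library. The cells had the markers of the label: all 10 fibroblast markers were above 1 normalized CPM (counts scaled to library size by TMM) in at least 1 library, and their summed level ran from 7858 to 10353 normalized CPM over the 6 libraries. Of 9 epithelial markers, 8 stayed below 1 normalized CPM in every library, and Krt18, Krt5 and Esrp1 had 0 counts throughout. The replicates of the TGF-β1 + DMSO group differed by gene length. The log2 difference of replicate 1 minus replicate 2 had a median of -0.31 over the shortest 25% of the genes tested and 0.30 over the longest 25%. Its slope was 0.16 per doubling of exonic length, against -0.02 in vehicle and -0.03 with BI6727.

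In vehicle-treated cells, 9 of the 10 genes were clearly expressed and Cdh1 was nearly absent. On the scale of normalized CPM per kb of exonic length, Prrx1 was highest at 62.4 ± 4.05 (SD, n = 2), followed by Twist1 at 48.1 ± 4.02 and Snai1 at 44.7 ± 7.44. Then came Snai2 at 15.7 ± 1.58, Twist2 at 14.0 ± 0.879 and Cdh2 at 10.2 ± 0.481. Zeb1 stood at 7.29 ± 0.447, Cdh11 at 6.60 ± 0.270 and Zeb2 at 3.66 ± 0.158 on the same scale, with Cdh1 last at 0.0562 ± 0.0170. The libraries of Twist1 and Snai1 overlapped, as did those of Snai2 and Twist2, so the order inside those pairs is not settled; the other neighbours did not overlap. The per-kb level divides by all annotated exons of a gene, which for Zeb2 is 19942 bases, and understates a gene that uses few of them.

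With TGF-β1 + DMSO the order of levels was another one. Prrx1 stood at 21.1 ± 4.06 normalized CPM per kb, below Twist1 at 39.8 ± 2.94 and Snai1 at 32.7 ± 2.03. Cdh2 at 20.2 ± 3.05 and Cdh11 at 16.1 ± 4.06 had come up to the level of Prrx1, and the libraries of these 3 genes overlapped. Twist2 at 7.02 ± 0.0854, Zeb1 at 6.01 ± 1.5996 and Snai2 at 5.88 ± 0.867 also overlapped, except for Twist2 and Snai2. Zeb2 followed at 2.53 ± 0.599, and Cdh1 was again last. Scaling by DESeq2 size factors gave the same order of the 10 genes in each group.

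**Figure D1:**
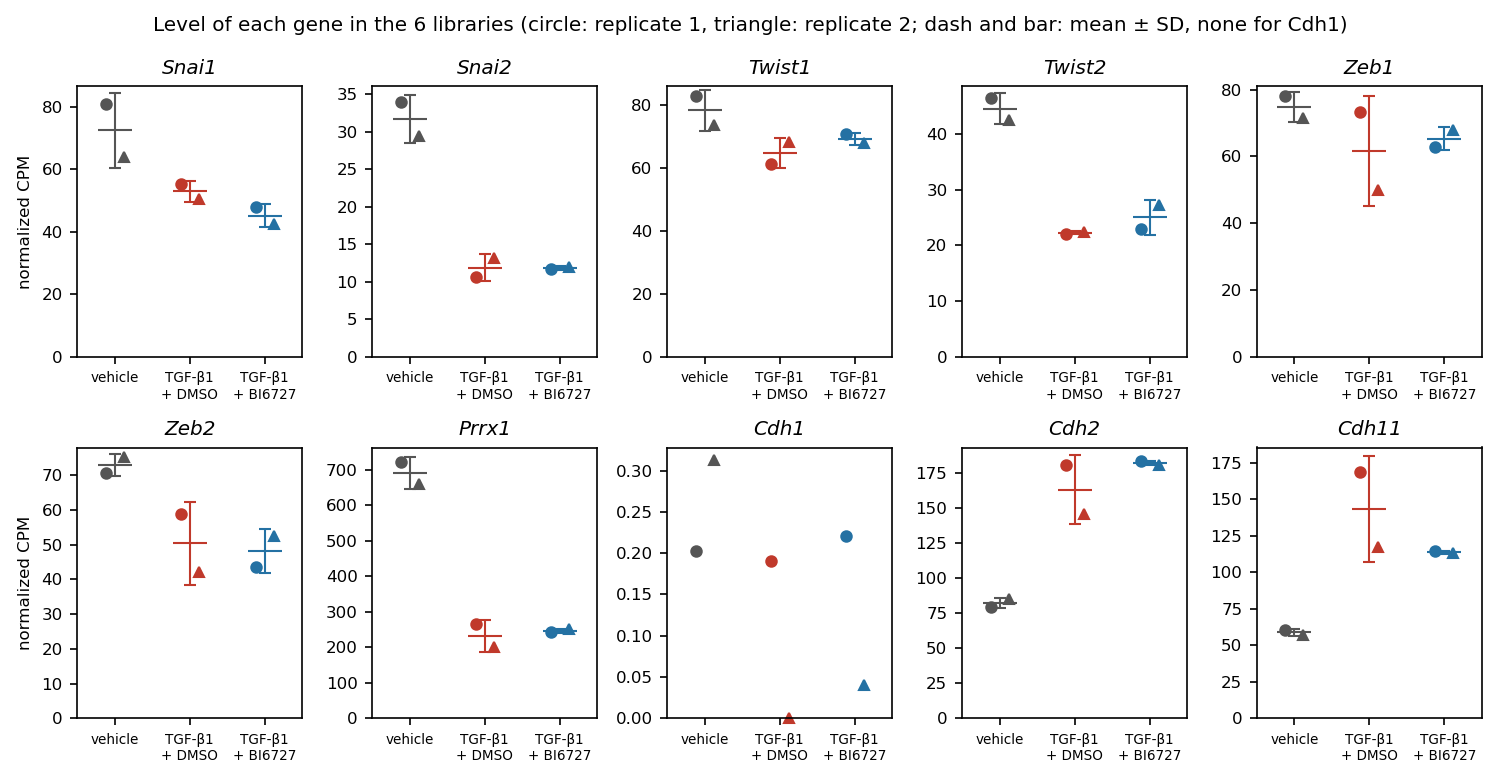
Normalized CPM (y axis, linear from 0, with its own range in each panel) of each gene in the vehicle, TGF-β1 + DMSO and TGF-β1 + BI6727 groups; points are libraries, dashes and bars the mean and SD of 2 libraries. Snai2, Twist2 and Prrx1 were lower in all 4 TGF-β1 libraries than in vehicle, Cdh2 and Cdh11 were higher, and Cdh1 had between 0 and 7 counts.

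The first comparison asked what TGF-β1 did to these genes. With TGF-β1 + DMSO against vehicle, Snai2 and Prrx1 fell, Cdh11 rose, and no transcription factor rose. A gene was called when edgeR's quasi-likelihood test gave a Benjamini-Hochberg adjusted p below 0.01 over the 14604 genes tested and a fold change above 2. By that rule, 2 of the 9 members tested were lower, beside 3.23% of all genes, and 1 was higher, beside 2.75%. At an adjusted p below 0.05 with no fold minimum, 3 members were lower (11% of all genes) and 2 were higher (9.87%). The median log2 fold change of the 9 members was -0.45, that of all genes tested -0.01. In bulk libraries, fewer cells of a type and less RNA per cell cannot be told apart.

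Prrx1 (chr1:163245119-163313710, minus strand), a homeobox factor of limb and craniofacial mesenchyme, had 722 and 659 normalized CPM in the vehicle libraries, 265 and 201 with TGF-β1 + DMSO, and 242 and 250 with TGF-β1 + BI6727. All 4 libraries with TGF-β1 were far below both vehicle libraries, with no overlap. Its log2 fold change with TGF-β1 + DMSO was -1.57 (SE 0.14, 95% interval -1.89 to -1.24, edgeR adjusted p = 0.00018). Prrx1 was the only member called under each of the 13 alternatives tried, with log2 fold changes from -1.78 to -1.37. Its count was the largest of the 10 genes, between 4279 and 14765 per library. Its paralogue Prrx2, which was not among the members, fell with it: 175 and 163 normalized CPM in vehicle stood against 49.0 and 51.9 with TGF-β1 + DMSO (log2 fold change -1.74, edgeR adjusted p = 0.000146).

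Snai2 (chr16:14705852-14709385, plus strand) encodes Slug, a repressor known in neural crest and migrating mesenchyme. It had 33.9 and 29.4 normalized CPM in vehicle, 10.6 and 13.1 with TGF-β1 + DMSO, and 11.7 and 12.02 with TGF-β1 + BI6727. The vehicle libraries were both above the other 4. The log2 fold change with TGF-β1 + DMSO was -1.41 (SE 0.16, interval -1.78 to -1.04, edgeR adjusted p = 0.000606). Without vehicle replicate 1 the call was lost, at a log2 fold change of -1.31, and it held under the other 12 alternatives. The log2 fold change was -1.27 without DMSO replicate 1 and -1.56 without DMSO replicate 2. Where 1 library is left in a group, the spread comes from the other groups alone, so no p-values are given for those fits.

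Snai1 (chr2:167538195-167542814, plus strand) encodes Snail, the SNAI member known as an early target of TGF-β in epithelial cells. It had 81.0 and 63.9 normalized CPM in vehicle, 55.3 and 50.7 with TGF-β1 + DMSO, and 47.8 and 42.5 with TGF-β1 + BI6727. The 3 groups did not overlap, but the vehicle libraries lay well apart from each other. Its log2 fold change with TGF-β1 + DMSO, -0.45 (SE 0.14, interval -0.78 to -0.12), did not pass the test (edgeR adjusted p = 0.0575). Without vehicle replicate 1 it was -0.27 and without vehicle replicate 2 it was -0.62. It was -0.52 without DMSO replicate 1 and -0.38 without DMSO replicate 2. The edgeR adjusted p was 0.0156 with a term for gene length and 0.0195 with no filter on low counts.

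The TWIST pair showed the same kind of inequality. Twist2 (chr1:91801461-91848028, plus strand), a factor of dermal and bone mesenchyme, had 46.5 and 42.6 normalized CPM in vehicle, 22.1 and 22.5 with TGF-β1 + DMSO, and 22.9 and 27.3 with TGF-β1 + BI6727. The vehicle libraries stood above all the others. Its log2 fold change of -0.998 (SE 0.14, interval -1.31 to -0.68) had an edgeR adjusted p of 0.00161, but the fold change was just short of 2, so the gene was not called; it was called under 3 of the 13 alternatives. Of the exonic bases of Twist2, 46.53% are shared with the antisense gene Gm29100, and no strand setting of the counting is given in the sources used here, so reads of the pair may be mixed. Gm29100 had 102 and 100 counts in vehicle, 42 and 22 with TGF-β1 + DMSO, and 46 and 42 with TGF-β1 + BI6727, beside 415 to 954 for Twist2.

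Twist1 (chr12:33957671-33959829, plus strand), a mesoderm factor that can also activate Cdh2, had 83.0 and 73.7 normalized CPM in vehicle, 61.4 and 68.2 with TGF-β1 + DMSO, and 70.8 and 67.9 with TGF-β1 + BI6727. The vehicle libraries were the highest, by a margin no wider than the distance between replicates. The log2 fold change of -0.27 (SE 0.12, interval -0.54 to -0.01) did not pass the test (edgeR adjusted p = 0.131). It was -0.20 without DMSO replicate 1 and -0.34 without DMSO replicate 2.

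The ZEB pair gave the least settled values. Zeb2 (chr2:44983632-45117395, minus strand), a SMAD-binding repressor, had 70.8 and 75.2 normalized CPM in vehicle, 59.0 and 42.1 with TGF-β1 + DMSO, and 43.7 and 52.6 with TGF-β1 + BI6727. The groups with and without TGF-β1 did not overlap, while the DMSO replicates lay far apart. The log2 fold change with TGF-β1 + DMSO was -0.53 (SE 0.17, interval -0.92 to -0.14, edgeR adjusted p = 0.0602). It was -0.80 without DMSO replicate 1 and -0.30 without DMSO replicate 2. The adjusted p was 0.033 with the DESeq2 test and 0.00368 with edgeR and no filter on low counts. In the other fits of all 6 libraries it stayed above 0.05, at 0.12 with a term for gene length.

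Zeb1 (chr18:5591860-5775467, plus strand), the paralogue of Zeb2 and a repressor of Cdh1, had 78.0 and 71.6 normalized CPM in vehicle, 73.3 and 50.1 with TGF-β1 + DMSO, and 62.8 and 67.9 with TGF-β1 + BI6727. Zeb1 was the only member tested whose vehicle and TGF-β1 + DMSO libraries overlapped. Its log2 fold change of -0.28 (SE 0.17, interval -0.67 to 0.12, edgeR adjusted p = 0.286) rested on a single library. It was -0.58 without DMSO replicate 1 and -0.02 without DMSO replicate 2. An antisense gene, Gm10125, covers 1.929% of the exonic bases of Zeb1, and its counts ran from 41 to 66.

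Against the factors, both expressed cadherins were higher with TGF-β1. Cdh11 (chr8:102632095-102785642, minus strand), known in myofibroblasts and bone-forming cells, had 60.5 and 57.1 normalized CPM in vehicle, 169 and 117 with TGF-β1 + DMSO, and 114 and 113 with TGF-β1 + BI6727. Every library with TGF-β1 was above both vehicle libraries. Its log2 fold change with TGF-β1 + DMSO was 1.28 (SE 0.16, interval 0.91 to 1.66, edgeR adjusted p = 0.00106). The call was lost by its adjusted p without vehicle replicate 1 (log2 fold change 1.32) and without vehicle replicate 2 (1.24). It was also lost without DMSO replicate 1, where the fold change fell just short of 2 (log2 fold change 0.997). Without DMSO replicate 2 the log2 fold change was 1.53.

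Cdh2 (chr18:16588877-16809246, minus strand), the N-cadherin of mesenchymal and neural cells, had 79.4 and 84.9 normalized CPM in vehicle, 180 and 146 with TGF-β1 + DMSO, and 183 and 181 with TGF-β1 + BI6727. The 4 libraries with TGF-β1 were all above vehicle. The log2 fold change with TGF-β1 + DMSO, 0.987 (SE 0.13, interval 0.70 to 1.27), had an edgeR adjusted p of 0.00101, with a fold change again just short of 2. It was 1.14 without DMSO replicate 2 and 0.82 without DMSO replicate 1.

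Cdh1 (chr8:106603351-106670246, plus strand), the epithelial cadherin, had 4 and 7 counts in the vehicle libraries, 4 and 0 with TGF-β1 + DMSO, and 4 and 1 with TGF-β1 + BI6727. No library passed 7 counts, so the gene was left out of the test and no fold is given. A count of 0 allows a level of up to 0.141 normalized CPM in that library (3 counts), for counting error only. From 4 and 7 counts in vehicle, a fall in Cdh1 could not be resolved at this depth. No library with TGF-β1 passed 4 counts, so a large rise was not seen.

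**Figure D2:**
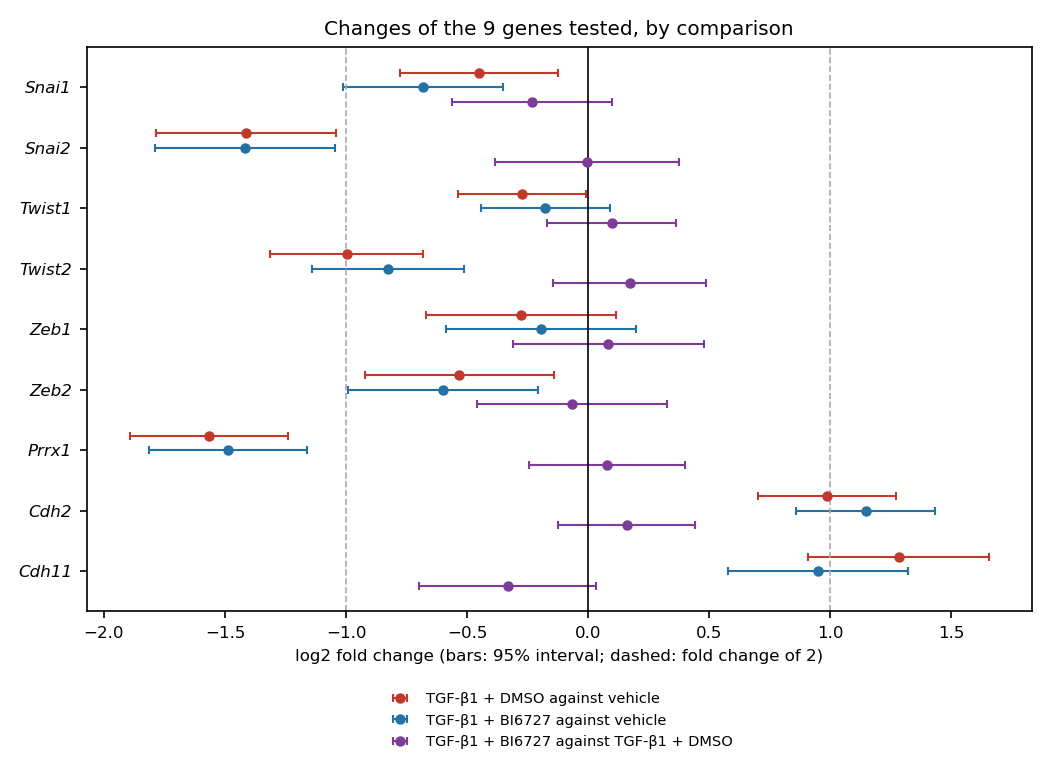
Log2 fold change (x axis) of the 9 genes tested (y axis) in the 3 comparisons; points are edgeR estimates, bars 95% intervals, dashed lines a fold change of 2. Snai2 and Prrx1 lay below the lower dashed line with either TGF-β1 group, the cadherins lay near the upper one, and every interval for BI6727 against DMSO held 0 in this fit of all 6 libraries.

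Over the 9 members tested, the TGF-β1 + DMSO and vehicle libraries did not overlap for 6 lower genes, where 31.8% of all genes were lower without overlap, and for 2 higher genes, where 28.7% were. All 6 were transcription factors and both higher genes were cadherins. With 2 libraries against 2, an exact permutation test cannot go below p = 0.333, so no single gene can be judged by rank alone.

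Within a library, the balance inside the families can be read without scaling between libraries, as a ratio of counts per kb. The ratio of Snai1 to Snai2 was 2.98 and 2.71 in vehicle, 6.48 and 4.81 with TGF-β1 + DMSO, and 5.10 and 4.41 with TGF-β1 + BI6727. The ratio of Twist1 to Twist2 was 3.48 and 3.38, then 5.42 and 5.91, then 6.04 and 4.86 in the same order. For both pairs the 4 libraries with TGF-β1 were all above vehicle, so the first paralogue took a larger share of its pair. The ratio of Zeb1 to Zeb2 was 2.14 and 1.85 in vehicle, 2.42 and 2.31 with TGF-β1 + DMSO, and 2.79 and 2.51 with TGF-β1 + BI6727, also without overlap but over a narrower range. The ratio of Cdh2 to Cdh11 was 1.45 and 1.64 in vehicle, 1.18 and 1.37 with TGF-β1 + DMSO, and 1.77 and 1.77 with TGF-β1 + BI6727. Here the DMSO libraries were the lowest and the BI6727 libraries the highest. A ratio of genes of unlike length keeps any length trend, as for Twist1 with 1628 exonic bases and Twist2 with 3174. Twist2 also shares exonic bases with Gm29100, as given above. These ratios were not tested, and no share over other gene pairs was computed.

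**Figure D3:**
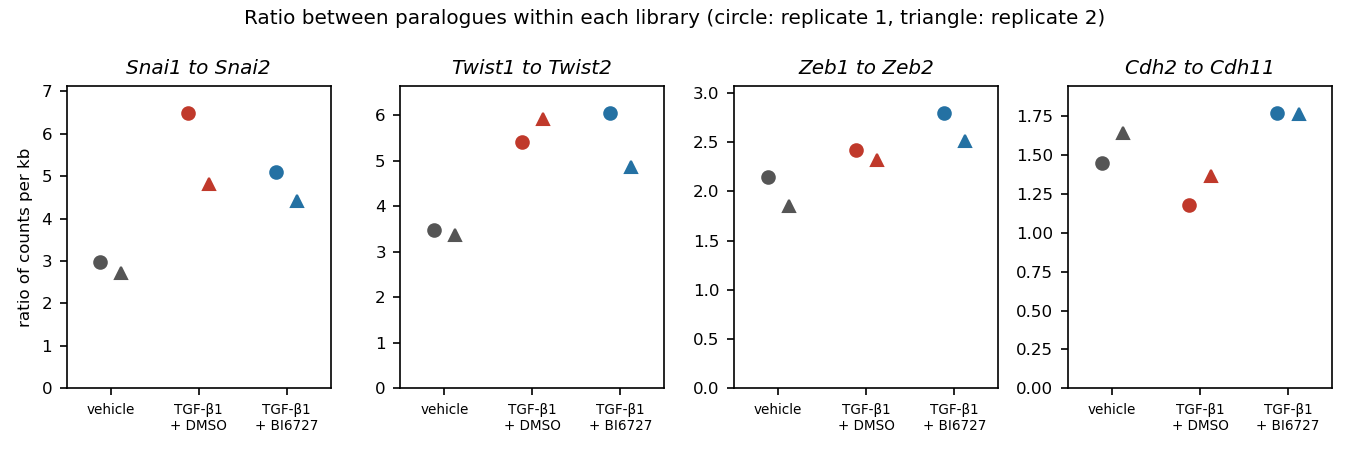
Ratio of counts per kb between 2 related genes within each library (y axis, linear from 0), by group; circles are replicate 1 and triangles replicate 2. Snai1 to Snai2 and Twist1 to Twist2 were higher in the 4 libraries with TGF-β1 than in vehicle, and Cdh2 to Cdh11 was lowest with TGF-β1 + DMSO.

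The second comparison asked whether BI6727 altered these genes under TGF-β1. With TGF-β1 + BI6727 against TGF-β1 + DMSO, none of the 9 members was called by edgeR, beside 0% of all genes in either direction. At an adjusted p below 0.05, 0.0137% of all genes passed, none of them a member, while 1041 genes had an unadjusted p below 0.05. DESeq2 called 15 genes lower, none a member. The lowest bound of the 9 intervals was -0.70 (Cdh11) and the highest 0.49 (Twist2), so that in the fit of all 6 libraries each member's 95% interval excluded a fold change of 2 either way. A p that missed the threshold does not show that the members were equal in these groups.

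Cdh11 had the largest estimate among the members, -0.33 (SE 0.16, interval -0.70 to 0.03, edgeR adjusted p = 0.705). Both BI6727 libraries of Cdh11 were below both DMSO libraries, by little for replicate 2 of the latter. The Cdh11 estimate was -0.58 without DMSO replicate 2 and -0.05 without DMSO replicate 1. Snai1 followed at -0.23 (interval -0.56 to 0.10, edgeR adjusted p = 0.779), also with no overlap between the groups. Twist2 at 0.17 and Cdh2 at 0.16 had edgeR adjusted p-values of 0.842 and 0.835, and their libraries did not overlap either, with BI6727 higher. In all, 2 members were lower without overlap (17.7% of all genes) and 2 were higher (17.4%).

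The other members were closer to no difference. Twist1 was at 0.10, Zeb1 at 0.08, Prrx1 at 0.08, Zeb2 at -0.07 and Snai2 at -0.004 on the log2 scale. For the 3 longest factors the value turned on which DMSO library was used. Without DMSO replicate 1, Zeb1 was at 0.39, Zeb2 at 0.20 and Prrx1 at 0.29. Without DMSO replicate 2 they were at -0.18, -0.30 and -0.12. Cdh2 was at 0.32 and 0.0002 in those fits. In each, the lone DMSO library was assumed to vary like the libraries of the other groups.

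**Figure D4:**
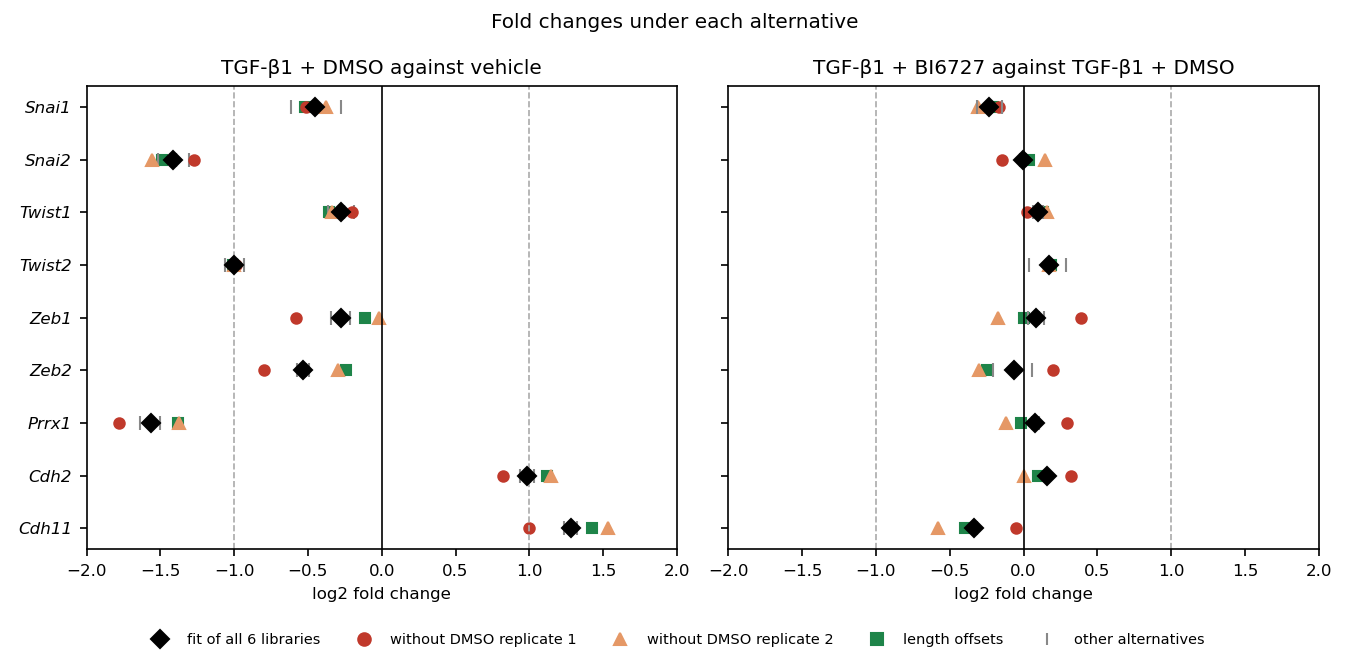
Log2 fold change (x axis) of the 9 genes under each alternative, for TGF-β1 + DMSO against vehicle (left) and TGF-β1 + BI6727 against TGF-β1 + DMSO (right); diamonds are the fit of all 6 libraries. Leaving out 1 DMSO library moved Zeb1, Zeb2, Prrx1, Cdh2 and Cdh11 most, and Twist2 least.

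The DMSO replicates of the members differed along gene length. Replicate 1 exceeded replicate 2 on the log2 scale by 0.55 for Zeb1, 0.52 for Cdh11, 0.49 for Zeb2, 0.40 for Prrx1 and 0.31 for Cdh2, the 5 tested members with the longest exonic sequence. The difference was 0.13 for Snai1, -0.02 for Twist2, -0.15 for Twist1 and -0.30 for Snai2, the shorter ones. When a term for gene length was fitted in each library, the log2 fold changes with TGF-β1 + DMSO were -1.38 for Prrx1, -0.24 for Zeb2, -0.11 for Zeb1, 1.42 for Cdh11 and 1.12 for Cdh2, the last then past a fold change of 2. Of the shorter factors, Twist2 at -1.01 was then called, Snai2 was at -1.49, and Snai1 at -0.52 and Twist1 at -0.35 had edgeR adjusted p-values of 0.0156 and 0.0187. In the same fit, BI6727 against DMSO gave -0.39 for Cdh11 (interval -0.62 to -0.17, edgeR adjusted p = 0.212) and -0.25 for Zeb2 (interval -0.49 to -0.007, adjusted p = 0.454). Neither of these intervals held 0, and neither gene passed the test across all genes. The part of the length difference in each result beyond these values was not tested.

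The third comparison, TGF-β1 + BI6727 against vehicle, shares the vehicle libraries with the first, so that its values stand beside those and do not repeat them independently. Prrx1 fell, with a log2 fold change of -1.49 (SE 0.14, edgeR adjusted p = 0.000207), and so did Snai2, with -1.42 (SE 0.16, adjusted p = 0.000573). Cdh2 rose by 1.15 (SE 0.13, edgeR adjusted p = 0.000441). These were the calls: 2 lower members, beside 3.71% of all genes, and 1 higher, beside 2.51%. The call of Prrx1 held under the 13 alternatives. That of Snai2 was lost without vehicle replicate 1 and without BI6727 replicate 1 or 2, at log2 fold changes of -1.31, -1.40 and -1.44. That of Cdh2 was lost without vehicle replicate 1 or 2, at 1.0996 and 1.19. In these fits the fold changes stayed above 2, and the adjusted p alone crossed its threshold.

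Cdh11 was at 0.95 against vehicle (edgeR adjusted p = 0.00442), short of a fold change of 2, where Cdh2 was short of it with DMSO. The cadherins thus changed places at the fold threshold, but neither differed between the TGF-β1 groups by the test given above. Twist2 was at -0.83 (edgeR adjusted p = 0.00368), Snai1 at -0.68 (adjusted p = 0.0112) and Zeb2 at -0.60 (adjusted p = 0.0389). Twist1 at -0.18 and Zeb1 at -0.19 had adjusted p-values of 0.317 and 0.465. In the fit of only the 2 groups compared, edgeR adjusted p-values were 7.81e-06 for Twist2, 3.68e-05 for Snai1 and 4.21e-05 for Zeb2. Those of Twist1 and Zeb1 were 0.0835 and 0.0611 there. That fit leaves out the DMSO libraries, whose log2 replicate differences had an SD of 0.56, against 0.45 in vehicle and 0.45 with BI6727. For TGF-β1 + DMSO against vehicle, the fit of 2 groups gave edgeR adjusted p-values of 0.00575 for Twist2, 0.121 for Snai1 and 0.107 for Zeb2. At an adjusted p below 0.05 with no fold minimum, 5 of the 7 factors were lower (12% of all genes tested) and both tested cadherins higher (9.98%). The libraries did not overlap for any of the 9 members, 7 lower and 2 higher, where 35.8% of all genes did so in each direction.

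In the levels per kb with BI6727, Twist1 at 42.6 ± 1.24 and Snai1 at 27.9 ± 2.31 were the highest, each apart from its neighbours. Cdh2 at 22.5 ± 0.210 and Prrx1 at 22.2 ± 0.549 overlapped, above Cdh11 at 12.8 ± 0.114. Twist2 at 7.90 ± 0.983, Zeb1 at 6.37 ± 0.349, Snai2 at 5.86 ± 0.120, Zeb2 at 2.41 ± 0.314 and Cdh1 at 0.0285 ± 0.0277 followed, none overlapping the next.

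For each member called with TGF-β1 + DMSO, the genes with the most similar profile were found by the root mean square difference in log2 normalized CPM, centred on the vehicle mean, over the 6 libraries and 9708 genes. For Snai2 these were Crabp1 (0.0665), Ngly1 (0.112) and Spp1 (0.113). For Prrx1 they were Fnbp1 (0.0736), Ralgds (0.0766) and Gas7 (0.0788). For Cdh11 they were Garem2 (0.0831), Nuak1 (0.0928) and Furin (0.0985). The last encodes a protease that cuts cadherin precursors.

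Related genes were counted by the same rule, beside 2.75% of all genes called higher and 3.23% called lower. At an adjusted p below 0.05 with no fold minimum, the shares over all genes were 9.87% higher and 11% lower. Of 40 other mesenchymal transcription factors, 26 were tested with TGF-β1 + DMSO against vehicle, 2 were called lower and none higher, with a median log2 fold change of 0.02. At an adjusted p below 0.05 with no fold minimum, 4 were higher and 3 lower. Those called were Prrx2, given above, and Osr1, an odd-skipped factor of limb and kidney mesenchyme (log2 fold change -2.14, edgeR adjusted p = 1.96e-05). Of 23 mesenchymal effector genes, all tested, 5 were called higher and none lower, with a median of 0.29. At an adjusted p below 0.05 with no fold minimum, 7 were higher and 4 lower, the latter Thy1, S100a4, Sparc and Lox, with log2 fold changes of -0.90, -1.01, -0.85 and -0.68. Among those called were Postn (log2 fold change 2.73), a matrix protein, Acta2 (2.31), the smooth muscle actin of myofibroblasts, and Itga5 (1.57), a fibronectin receptor subunit. None of the 7 factors described here was called higher. With 2.75% of all genes called higher, 7 genes are too few for this to mark a contrast with the effector genes.

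Of 20 other cadherins, 6 were tested and Cdh26 alone was called, lower at -2.37 (edgeR adjusted p = 0.00409) from 50 and 60 counts in vehicle to 10 and 11, with a list median of 0.83. Of the 6, 2 were higher and 1 lower at an adjusted p below 0.05, beside 9.87% and 11% of all genes. Of 22 catenins and junction linkers, 18 were tested and Jup, the plakoglobin that binds cadherin tails, rose by 1.53 (edgeR adjusted p = 0.00032), with a median of 0.07. Of the 18, 5 were higher and 2 lower at an adjusted p below 0.05, beside the same shares.

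Although Cdh1 stayed near 0, some epithelial junction genes rose. Of 36 listed, 10 were tested, 4 were called higher and none lower, with a median of 0.88. There were 6 higher and none lower at an adjusted p below 0.05, beside 9.87% and 11% of all genes. Among them, the desmosomal plakophilin Pkp3 rose by 1.13 on the log2 scale. Krt14 went from 3 and 4 counts in vehicle to 36 and 38, and Cgn from 0 in both to 56 and 50, at least 17.6-fold higher against a floor of 3 counts per library. The summed level of the 9 epithelial markers was 0.354 to 0.491 normalized CPM in vehicle, 2.49 to 2.53 with TGF-β1 + DMSO and 0.531 to 1.43 with TGF-β1 + BI6727. Their part in these changes was not tested. Of 18 epithelial regulators, 7 were tested and none was called by edgeR, though 2 passed an adjusted p of 0.05, both higher; the median was 0.65.

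Fibroblast markers were read beside the members. With TGF-β1 + DMSO, 3 of 10 were called lower (Pdgfra, Lum and Dcn) and none higher, and the median of the list was -0.81. At an adjusted p below 0.05 with no fold minimum, 6 were lower (11% of all genes) and 0 higher (9.87%). The summed level of the list overlapped between TGF-β1 + DMSO and vehicle. Its largest part was Vim, at 3908 to 5008 normalized CPM over all libraries. The summed level of 6 endothelial markers was 5.05 to 7.41 normalized CPM in vehicle, 11.8 to 18.04 with DMSO and 10.2 to 10.6 with BI6727. Its largest part was Vwf, at 4.75 and 6.51 in vehicle, 14.3 and 8.94 with DMSO, and 8.21 and 7.97 with BI6727. Kdr and Emcn had 0 counts in every library. With TGF-β1 + DMSO against vehicle, 3 of the 6 were tested and 0 were called. At an adjusted p below 0.05, 2 were higher and 0 lower. The summed level of 6 adipocyte markers was 34.6 to 57.3, 6.40 to 8.35 and 4.90 to 7.11, mostly Lpl. Leukocyte and skeletal muscle markers summed to between 1.97 and 5.84 in every library. Whether these had a part in the members' changes was not tested.

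**Figure D5:**
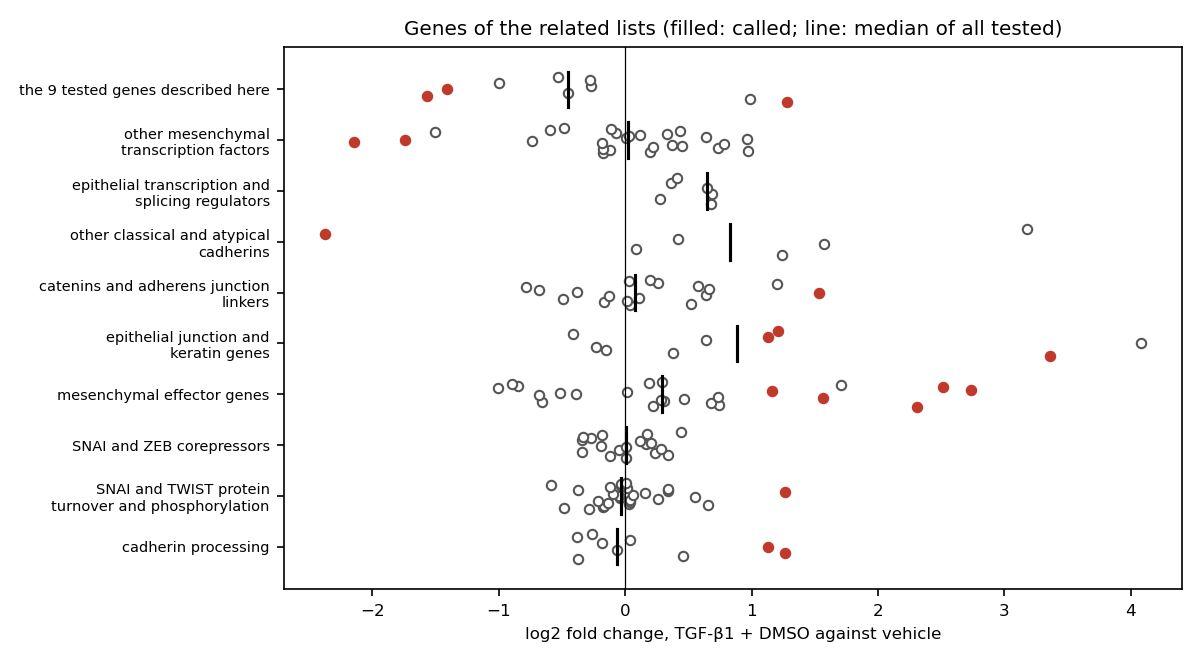
Log2 fold change with TGF-β1 + DMSO against vehicle (x axis) of the tested genes of each list (y axis); filled points were called, lines are medians of all tested genes, and Cgn and Grhl2, with 0 counts in vehicle, are not drawn. The 9 members had a median of -0.45, and the other mesenchymal factors 0.02.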

How the data were processed

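The authors removed ribosomal RNA, sequenced single-end reads, aligned them to mm10 with Subjunc (Subread 1.6.4) and counted them on Gencode M20 genes with featureCounts; the deposited counts are raw counts per gene, not normalized. The setting for strand is not given in the sources used here. Depth was 18362378 to 24452153 counts per library, and its precision is covered by the fitted errors. Samples were grouped by their labels. Of 54752 identifiers, 54723 had a symbol. Genes were filtered with filterByExpr, scaled by TMM and fitted with edgeR 4.0.16 (quasi-likelihood, all 6 libraries, R 4.3.3), and p-values were adjusted over 14604 genes. Calls needed an adjusted p below 0.01 and a fold change above 2. All 10 members are named in each comparison; of every other list, the called genes are named, up to the 4 with the largest change with TGF-β1 + DMSO, and the 3 closest profiles of each called member. Prrx1's paralogue and the antisense partners are named because a member's value bears on them. Grhl2, Thy1, S100a4, Sparc, Lox and Vwf are named after their values were seen. Some listed genes are not reported here by name. The members and lists were chosen with earlier results of these data known. Gene coordinates are mm10, as deposited with the counts. Promoters of chromosome 18 were not searched. Alternatives were DESeq2 size factors, the DESeq2 1.42.0 test, a filter of 10 CPM in more than 3 samples, no filter, only the groups compared, a replicate block, a length term, looser thresholds and leaving out each library. The fit was tested on simulated data. Same-numbered replicates did not deviate together (correlations of -0.04, -0.06 and -0.01).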

Additional observations from a re-analysis of the deposited data

How the results depend on the processing

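With looser thresholds, the genes called with TGF-β1 + DMSO against vehicle went from 402 higher and 472 lower to 676 and 745 (adjusted p below 0.01, no fold minimum) and 1442 and 1610 (below 0.05), and the members higher from 1 to 2. With TGF-β1 + BI6727 against vehicle they went from 366 and 542 to 669 and 862, then 1457 and 1759, with 2 members higher and, below 0.05, 5 lower. The filter of 10 CPM left 244 higher and 241 lower with DMSO, and 223 and 282 with BI6727, since fewer genes were tested. Cdh2 passed a fold change of 2 with DMSO under DESeq2 size factors, the DESeq2 test, only the groups compared and the length term (2 members higher in each), and Cdh11 with BI6727 under the length term (2 higher). For BI6727 against DMSO, from 0 calls, DESeq2 called 15 genes lower, no filter 6 higher and 41 lower, and the length term 11 lower; an adjusted p below 0.05 gave 2 lower.

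Leaving out 1 library each moved the genes called with DMSO against vehicle from 137 to 591 higher and from 156 to 872 lower, the members higher from 0 to 2 and those lower from 1 to 3. With BI6727 against vehicle the ranges were 135 to 493 and 204 to 726 genes, 0 to 1 and 1 to 2 members. With BI6727 against DMSO they were 0 to 66 genes higher and 0 to 35 lower, and 0 members.
In each of these fits, the group left with 1 library was assumed to vary like the others. The cause of these shifts was not tested. The replicate block kept each member's call: 1 higher and 2 lower, with 370 and 440 genes (DMSO) or 311 and 493 (BI6727). Near 0, some log2 fold changes for BI6727 against DMSO changed sign: Snai2 to 0.036 and Prrx1 to -0.018 with the length term, and 4 genes with 1 library left out, over ranges of -0.15 to 0.14 for Snai2, -0.18 to 0.39 for Zeb1, -0.30 to 0.20 for Zeb2 and -0.12 to 0.29 for Prrx1. With 2 libraries a group, small changes lie below what this depth and spread resolve.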

Other observations

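Genes that act with the members were also counted. Of all genes, 2.75% were called higher and 3.23% lower with TGF-β1 + DMSO against vehicle. At an adjusted p below 0.05 these shares were 9.87% and 11%. The SNAI and ZEB factors repress through corepressors such as CtBP, HDAC and Polycomb proteins; 18 of 19 listed were tested with TGF-β1 + DMSO against vehicle by edgeR, and 0 were called or passed an adjusted p of 0.05, with a median log2 fold change of 0.01. Of 27 genes for the turnover and phosphorylation of SNAI and TWIST proteins, all tested, Mdm2 alone was called, a ubiquitin ligase known for p53 (203 and 222 normalized CPM in vehicle, 492 and 528 with DMSO, 561 and 616 with BI6727; log2 fold change 1.26, edgeR adjusted p = 0.000148). Of 12 genes of cadherin processing, 9 were tested and 2 were called higher: Furin by 1.13 and Bmp1 by 1.26, with a median over the list of -0.06. At an adjusted p below 0.05, 2 of the 27 turnover genes were higher and 1 lower, and 3 of the 9 processing genes were higher and 0 lower.

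With BI6727 against DMSO, 0 genes of any of these lists were called by edgeR. The 2 effector genes with the lowest unadjusted p-values, chosen after their values were seen, were Postn, at 70.7 and 26.2 normalized CPM with DMSO and 13.9 and 11.1 with BI6727 (log2 fold change -1.96, edgeR adjusted p = 0.463), and Acta2, at 471 and 462 against 344 and 322 (-0.49, edgeR adjusted p = 0.463). Against vehicle, with BI6727, 2 effector genes were called lower, Sparc (-1.15) and Lox (-1.001). With DMSO against vehicle these were at -0.85 (edgeR adjusted p = 0.00341) and -0.68 (adjusted p = 0.0258), so both were also lower at an adjusted p below 0.05, Sparc short of a fold change of 2 and Lox short of both thresholds. The test of the difference, BI6727 against DMSO, gave edgeR adjusted p-values of 0.704 and 0.738.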
